A study of Xenopus laevis with 8 samples.

Results

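The response of *Xenopus laevis* neurulae to an unrelated control morpholino was examined by comparing the injected with the uninjected side of the same control morphants. The members were chosen by their labels: 2 arrays of injected sides and 2 arrays of uninjected sides, 4 of the 8 arrays of the series. Arrays with the same replicate number formed a pair. The other 4 arrays held both sides of xSuv4-20h double morphants, in which morpholinos block translation of both enzymes that di- and trimethylate histone H4 at lysine 20. All 8 samples were RNA of embryos fertilized in vitro, grown to neurulae and dissected along the midline. Per the labels, a total of 40 ng morpholino was placed in a pair of neighbouring blastomeres on a single side, whereas the study's supplementary text gives a higher dose in a single blastomere. Each array measured a pool of dissected sides, the pairs came from 2 independent experiments, and no array of untouched embryos was used here. An effect of the control morpholino could therefore not be told apart from one of the injection itself or of the coinjected lineage tracer.

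Morpholinos are modified antisense oligonucleotides that bind an mRNA and block its translation or splicing, and the standard control oligonucleotide has no intended target in the frog. In zebrafish, some morpholinos are known to raise targets of the tumour suppressor p53 whatever their intended target. In the neurula, the neural plate is being patterned by signals from the organizer and its derivative, the notochord, while epidermis, somites, cement gland and neural crest differentiate around it.

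The deposited values were on the log2 scale, on which a difference of 1 is a 2-fold change. Medians of the 8 arrays lay between 5.09 and 5.19, and 31.7% of all values were under 2.5, close to the lowest value of 2.14, so that low values only bound a level. Of 30 cell type markers looked up, 27 were listed on the array, and 24 of these reached 4 on at least 1 control morphant array, in each germ layer and in neural plate, epidermis, ionocytes, multiciliated cells, cement gland, notochord, muscle and neural crest. The neuronal tubulin tubb3.L and the blood markers gata1.L, gata1.S and hba1.S did not. Since this frog is allotetraploid, many genes exist as homeologs, told apart by the endings .L (long chromosome) and .S (short chromosome). The number of arrays limits the precision, and an exact permutation test of 2 against 2 arrays cannot give a p below 0.333.

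Most genes differed little between the sides. Of 8219 genes tested, 7106 (86.5%) had a mean difference between injected and uninjected sides of less than 0.5 on the log2 scale, and the median over all genes was 0.04. A gene was called when its local false discovery rate (local fdr) was under 0.2. The local fdr estimates the chance that a gene with such a statistic is unchanged, here from limma's moderated t and a fitted normal curve. By this rule 74 genes (0.9% of those tested) were higher and 256 genes (3.11%) were lower in the injected sides, together 4.02%. Each of them moved the same way in both pairs. This follows from sides that did not overlap, given below, and is no separate evidence. With so few arrays t has heavier tails than a normal curve, so very small local fdr values are not literal chances. After turning t into z values, 0 genes were called higher and 77 lower. The fitted curve was centred at 0.18 and not at 0, which made a rise harder to call than a fall. No gene passed a Benjamini-Hochberg adjusted p of 0.05 in limma. The lowest adjusted p was 0.405, and at an unadjusted p under 0.05 there were 195 higher (2.37%) and 227 lower genes (2.76%). All 330 called genes had sides that did not overlap, as had 17.7% of all genes upwards and 12.9% downwards. Blocking by pair gave 54 higher (0.657%) and 239 lower genes (2.91%), of which 27 (0.329%) and 136 (1.65%) were among those called without the block. With this block the lowest adjusted p was 0.12 in limma, so that no gene passed 0.05, while an adjusted p of 0.2 was passed by 303 higher (3.69%) and 354 lower genes (4.31%), among them 72 and 177 of those called. A block by replicate number, shared by both kinds of morphant, gave 18 higher and 187 lower genes. Of these, 15 and 124 were among those called without a block.

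The pairs were of unequal size. In pair 1, 48 genes were more than 1 higher and 126 more than 1 lower in the injected side, whereas in pair 2 these numbers were 109 and 330. In both pairs at once, 27 genes (0.329%) exceeded 1 upwards and 55 (0.669%) downwards. Of 51 cell adhesion and matrix genes, 12 were more than 1 lower in the injected side of pair 2, against 1 in pair 1. The injected side of replicate 2 stood apart by low levels of such genes and of many muscle, notochord and neuronal genes, described below. Without that array 55 genes were called higher and 152 lower, including 38 and 101 of those called with it. Without the uninjected side of replicate 2 the calls fell to 8 higher and 57 lower.

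**Figure D1:**
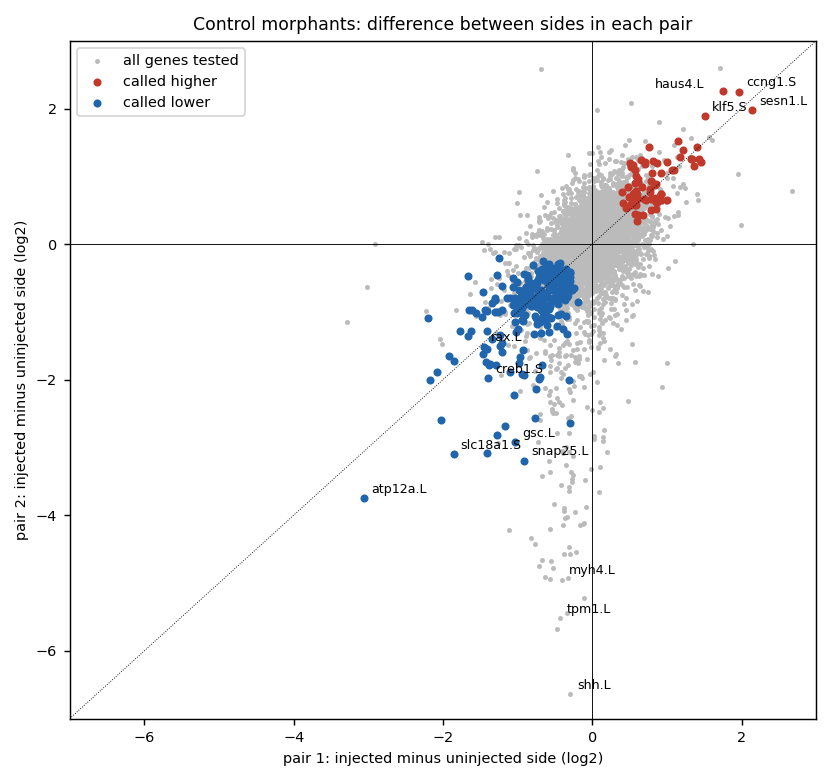
Difference between injected and uninjected sides (log2) in pair 1 (x axis) and pair 2 (y axis) for each of the 8219 genes, with called genes in colour and the dotted line marking equal differences. Called genes such as rax.L lie near the line, and others such as snap25.L and gsc.L lie well below it. A column of uncalled genes with little difference in pair 1, such as shh.L, tpm1.L and myh4.L, reaches far below 0 in pair 2.

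Genes known from mammals as p53 targets were among those that rose most in the injected sides. Of 43 genes in a list of p53 targets, DNA damage and apoptosis genes, 6 rose, 2 fell and 35 were not called. Thus 18.6% of the list was called, against 4.02% of all genes. The list's median difference was 0.15, against 0.04 over all genes. Both copies of cyclin G1, a classical p53 target, rose. The gene ccng1.L had 12.41 and 12.60 in injected sides, against 11.20 and 11.22 in uninjected sides, a difference of 1.30 (standard error 0.24, local fdr 2.23e-06). Its copy ccng1.S had 7.43 and 6.93 in injected sides, against 5.47 and 4.68 in uninjected sides, a difference of 2.10 (standard error 0.53, local fdr 0.00908). In both copies every injected side lay above every uninjected side, as in every gene called higher and in 17.7% of all genes. The 2 other probe sets of ccng1.S differed by 1.91 and 2.02 in the same direction.

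The sestrin gene sesn1.L, whose product restrains growth signalling under stress, had 7.40 and 7.09 in injected sides, against 5.26 and 5.11 in uninjected sides, a difference of 2.06 (standard error 0.45, local fdr 0.00042). This gap was about the same in both pairs, with 2.14 and 1.98, but another probe set of sesn1.L differed by only 0.06. The polo-like kinase gene plk2.S had 6.68 and 7.02 in injected sides, against 5.35 and 5.76 in uninjected sides, a difference of 1.29 (standard error 0.25). The nuclease gene aen.L, which promotes apoptosis downstream of p53 in mammals, had 8.83 and 9.07 in injected sides, against 7.73 and 7.97 in uninjected sides, and thus differed by 1.10 in each pair. The translesion polymerase gene polk.L had 6.42 and 5.76 in injected sides, against 5.06 and 4.61 in uninjected sides. As in every called gene, the sides of these 3 genes did not overlap.

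The 2 genes of the list that fell were mdm4.S, which encodes an inhibitor of p53, by 0.68 on the log2 scale, and bak1.S, which encodes a pore-forming protein of apoptosis, by 0.85. Of the 43 genes of the list, 29 had a positive and 14 a negative difference. Some uncalled members were higher in both pairs: sesn2.L differed by 0.77 (local fdr 0.248), plk2.L by 0.75 (local fdr 0.248) and tp53inp1.S by 0.69 (local fdr 0.765). These uncalled genes were chosen after their values were seen. With the pairs as a block, 5 genes of the list were called higher (all but polk.L) and 0 lower. With replicate number as the block instead, ccng1.L was called (local fdr 0.113), whereas plk2.S, aen.L and polk.L were not (local fdr 0.309, 0.328 and 0.365). Without the injected side of replicate 2 there were 6 higher and 1 lower genes, without that of replicate 1 there were 0 and 1, and without the uninjected side of replicate 2 there were 1 and 0. In double morphants ccng1.L, ccng1.S and sesn1.L differed between the sides by 1.33, 2.07 and 1.93, none of them called there. The other genes of the list that rose differed less in double than in control morphants, plk2.S by 0.26, aen.L by 0.46 and polk.L by 0.87. None of these was called in double morphants either.

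**Figure D2:**
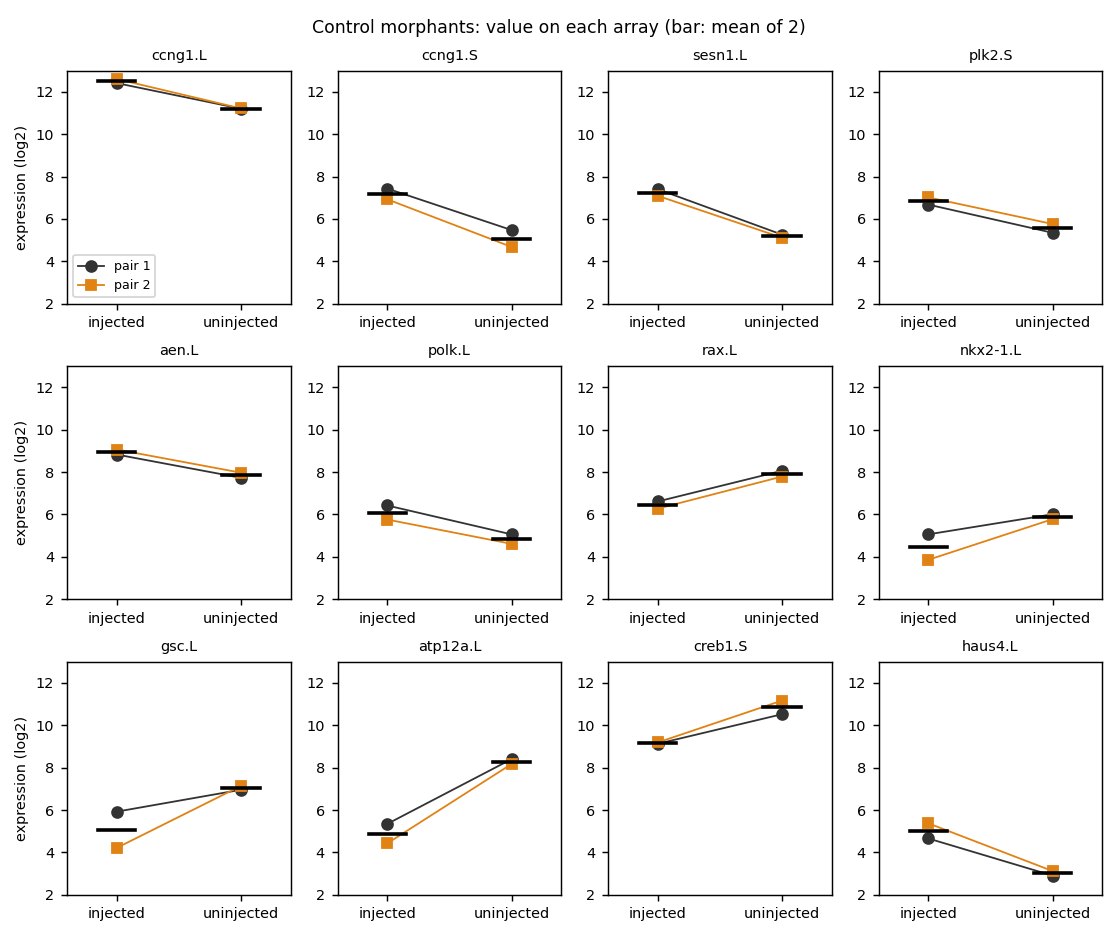
Expression value (log2) of 12 genes on the 4 control morphant arrays, injected sides left and uninjected sides right, with a line joining the sides of a pair and a bar at the mean of 2. The 6 genes of the p53 list fall to the right in both pairs, whereas rax.L, nkx2-1.L, gsc.L, atp12a.L and creb1.S rise to the right, and haus4.L falls.

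Regulators of the eye field and forebrain were lower in the injected sides. Of 25 such genes 7 fell, 0 rose and 18 were not called, with a median difference of -0.47 (-0.33 in pair 1 and -0.32 in pair 2). Called were 28% of the list, against 4.02% of all genes. The retinal homeobox gene rax.L had 6.61 and 6.28 in injected sides, against 8.06 and 7.79 in uninjected sides, and fell by 1.48 (standard error 0.33, local fdr 9.41e-05). The gene nkx2-1.L, which specifies the ventral forebrain, had 5.06 and 3.86 in injected sides, against 6.01 and 5.78 in uninjected sides, and fell by 1.43 (standard error 0.39). For both genes the sides were well apart, and for nkx2-1.L the gap was wider in pair 2.

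The other forebrain genes that fell changed less. The anterior repressor hesx1.S fell by 0.83, the forebrain zinc finger gene fezf2.L by 0.75, the LIM homeobox gene lhx2.L by 0.73, pax6.L, the regulator of eye development, by 0.54, and otx2.S, a determinant of the anterior neural plate, by 0.45. The largest difference downwards in this list was that of foxd1.L, which was not called, with 7.26 and 4.53 in injected sides, against 7.96 and 7.13 in uninjected sides. The diencephalic gene lhx5.S had the largest positive difference of the list. It had 4.64 and 6.51 in injected sides, against 3.07 and 4.93 in uninjected sides, so that the sides overlapped although the differences within pairs were 1.56 and 1.58. It was called with the pairs as a block, as were rax.L, nkx2-1.L and lhx2.L, and the block gave 1 higher and 4 lower genes of this list. Without the injected side of replicate 2 the list had 4 lower genes, and without the uninjected side of replicate 2 it had 1.

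Genes of the organizer and its derivatives were mostly lower, but to a very different degree in the 2 pairs. Of 30 notochord, floor plate and organizer genes 5 fell and 0 rose, with a median of -0.60 (-0.20 in pair 1 and -0.82 in pair 2). That is 16.7% of the list called, against 4.02% of all genes. Goosecoid, a homeobox gene of the head organizer, fell in both copies. The gene gsc.L had 5.92 and 4.21 in injected sides, against 6.96 and 7.14 in uninjected sides, and fell by 1.98 (standard error 0.53). The gene gsc.S had 4.80 and 4.55 in injected sides, against 5.59 and 5.87 in uninjected sides, and fell by 1.05 (standard error 0.23). As in every called gene, the sides did not overlap for either copy. The notochord gene not.L fell by 1.16 (local fdr 0.198), the secreted Wnt antagonist dkk1.S by 0.76, and otx2.S belongs to this list too.

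Several uncalled members of the list were low on the injected side of replicate 2 alone. The signalling gene shh.L, expressed in notochord and floor plate, had 8.712 and 2.760 in injected sides, against 9.005 and 9.401 in uninjected sides. The BMP antagonist chrd.1.S had 11.21 and 8.73 in injected sides, against 11.57 and 11.99 in uninjected sides. The organizer ligand admp.S had 7.95 and 5.11 in injected sides, against 8.33 and 9.04 in uninjected sides. In each of the 3 genes the injected side of replicate 1 was within 0.4 of its uninjected partner, while that of replicate 2 was several units lower. The same held for not.S (6.95 and 4.30 in injected sides, against 6.96 and 7.62 in uninjected sides) and, less closely in pair 1, for the cartilage collagen gene col9a1.L, which reached the lowest value of the array set, 2.14, on that array. With the pairs as a block no gene of the list was called. Without the injected side of replicate 2 there were 3 lower genes, without that of replicate 1 there were 8, and without the uninjected side of replicate 2 there were 0.

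Skeletal muscle genes showed the same split between pairs in its sharpest form. Of 45 muscle and somite genes 1 fell, 0 rose and 44 were not called (2.22% called, against 4.02% of all genes). The list's median was -0.04 in pair 1 and -1.18 in pair 2. A total of 25 of its genes were more than 1 lower in the injected side of pair 2, against 1 gene in pair 1. Tropomyosin tpm1.L had 8.84 and 2.79 in injected sides, against 9.27 and 8.30 in uninjected sides. The myosin heavy chain gene myh4.L had 12.32 and 6.59 in injected sides, against 12.73 and 11.54 in uninjected sides. Muscle creatine kinase ckm.L had 8.03 and 3.18 in injected sides, against 8.75 and 7.93 in uninjected sides. These contractile and metabolic genes were thus low on a single array of the 4. The muscle actin gene actc1.L had 13.26 and 10.62 in injected sides, against 13.27 and 13.07 in uninjected sides, and the myogenic regulator myod1.L had 9.82 and 7.66, against 9.50 and 9.28. Without the injected side of replicate 2 the list's median was 0.08 and no gene of it was called, and without that of replicate 1 there were 9 lower genes.

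The gene of this list that was called, pcdh8.L, encodes a protocadherin of the paraxial mesoderm. It had 6.95 and 6.16 in injected sides, against 7.68 and 7.34 in uninjected sides, and was also called with the pairs as a block. The injected side of replicate 2 of the double morphants was low in the same muscle genes, with 12.15 and 7.62 for myh4.L in injected sides, against 12.88 and 12.71 in uninjected sides of double morphants. In these pools, fewer cells of a type and less RNA per cell cannot be told apart. The part of these tissues in the other differences of pair 2 was not tested.

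**Figure D3:**
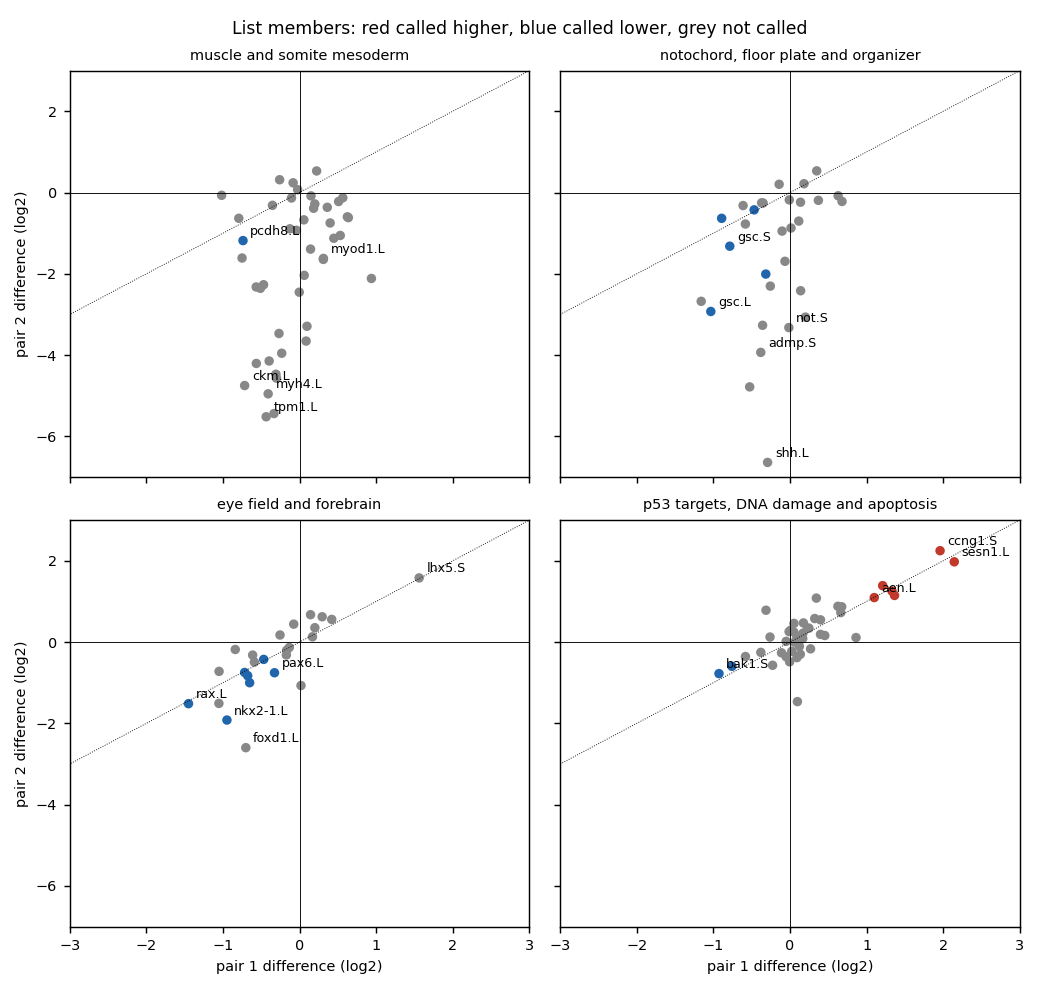
Difference between injected and uninjected sides (log2) in pair 1 (x axis) and pair 2 (y axis) for the members of 4 gene lists, with the dotted line marking equal differences. Muscle and notochord genes spread downwards mostly along pair 2, whereas called genes of the forebrain and p53 lists lie nearer the line.

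Genes of neuronal differentiation were also lower, again more so in pair 2. Of 26 such genes 4 fell, 0 rose and 22 were not called (15.4% called, against 4.02% of all genes). The median was -0.67 (-0.33 in pair 1 and -0.97 in pair 2). The synaptic gene snap25.L had 5.88 and 3.62 in injected sides, against 6.80 and 6.81 in uninjected sides, and fell by 2.06 (standard error 0.87, local fdr 0.167). The neuronal intermediate filament gene prph.S had 4.05 and 3.92 in injected sides, against 5.15 and 5.80 in uninjected sides, and fell by 1.50 (standard error 0.37). The microtubule regulators dpysl3.S and stmn1.S fell by 1.33 and 0.96. The differences of stmn1.S were alike in the pairs, -0.98 and -0.93, and it was called with the pairs as a block, where the list had 2 lower genes. Its homeolog stmn1.L differed by 0.38 upwards and was not called. The calls of snap25.L, prph.S and dpysl3.S were lost with the block (local fdr 0.728, 0.314 and 0.414). Without the injected side of replicate 2 the list had 1 lower gene and a median of -0.02, without the uninjected side of replicate 1 it had 1 lower gene, and without that of replicate 2 it had 0.

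Of 53 genes of the Wnt pathway 5 rose, 4 fell and 44 were not called, with a median of 0.07. The share called was 17%, against 4.02% of all genes. The ventral and posterior ligand gene wnt8a.L had 10.08 and 9.94 in injected sides, against 9.29 and 9.43 in uninjected sides, a difference of 0.65 (standard error 0.16). The receptor gene fzd10.L rose by 0.53 and the cytoplasmic transducer gene dvl3.L by 0.83. Of the direct Wnt targets, sp5.L rose by 0.69 and axin2.L, which also restrains the pathway, by 0.47. The Frizzled-related gene frzb2.L, which encodes a secreted antagonist, had 5.47 and 4.30 in injected sides, against 6.52 and 6.53 in uninjected sides, and fell by 1.64, and dkk1.S fell by 0.76. The planar polarity gene vangl1.L fell by 0.55. The anterior receptor gene fzd8.S fell by 0.83 at its most variable probe set, but its other probe sets differed by 0.18 and 0.14 upwards. With the pairs as a block only sp5.L of the list was called. Without the injected side of replicate 2 the counts were 3 higher and 1 lower, without that of replicate 1 they were 1 and 2, without the uninjected side of replicate 1 they were 1 and 1, and without that of replicate 2 no gene was called.

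In the lists of ventral fates and of BMP and Nodal signalling, 3.57% and 3.45% of the genes were called, against 4.02% of all genes. All these calls were rises, and 0.9% of all genes were called higher. In the list of lateral and ventral mesoderm, heart and blood, 45 of 56 genes had a positive difference and the median was 0.25. Called higher were wnt8a.L and gata6.L, a regulator of heart and gut. In the BMP and Nodal list of 58 genes the median was 0.24. The genes smad2.L, which transduces Nodal signals, and twsg1.S, an extracellular modulator of BMP, rose by 0.51 and 0.74. Their other probe sets differed by only 0.10 for smad2.L and by 0.45 for twsg1.S. The ligand gene bmp7.2.L differed between the sides by 1.22 in pair 1 and 1.70 in pair 2. It was not called (local fdr 0.264) without the pairs as a block and was called with them. The BMP target and feedback inhibitor szl.S had 7.15 and 7.82 in injected sides, against 5.74 and 7.16 in uninjected sides, and was not called. Neither list had a called lower gene, and none of wnt8a.L, gata6.L, smad2.L and twsg1.S was called with the block, under which the BMP and Nodal list had 1 higher and 1 lower gene. That list without the injected side of replicate 1 had 0 higher and 4 lower genes, and without the uninjected side of replicate 2 neither list had a called gene.

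The lists of multiciliated, ionocyte and epidermal genes had 1 or 2 called genes each. In multiciliated cells, 28 of 36 genes had a positive difference, 2 rose and 0 fell, and the median was 0.24, against 0.04 over all genes. Called were 5.56% of these genes, against 4.02% of all genes. Both calls were rises, and 0.9% of all genes were called higher. At an unadjusted p under 0.05 in limma 5 of them were higher and 0 lower. The regulator of multiciliogenesis mcidas.S had 8.04 and 8.63 in injected sides, against 7.33 and 7.45 in uninjected sides, and rose by 0.94 (standard error 0.23). Cyclin O, needed for centriole amplification in these cells, had 10.24 and 10.88 in injected sides, against 9.48 and 9.45 in uninjected sides, for ccno.L, and 7.49 and 8.52, against 7.27 and 7.27, for ccno.S. Only ccno.L was called, with a difference of 1.09. The sides of the 3 genes did not overlap, as in every called gene and in 17.7% of all genes upwards. Pair 2 had the wider gap in each of the 3. With the pairs as a block mcidas.S was called and ccno.L was not (local fdr 0.338), and without the uninjected side of replicate 2 no gene of the list was called.

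The strongest fall of any called gene was that of atp12a.L, the catalytic subunit of a proton-potassium pump. It had 5.34 and 4.43 in injected sides, against 8.40 and 8.17 in uninjected sides, and fell by 3.40 (standard error 0.43, local fdr 1.45e-16, adjusted p = 0.405 in limma). It was called under each fit run for single genes, and in double morphants it differed by -3.25. It was the called gene among 22 ionocyte genes (4.55% called, against 4.02% of all genes), whose median was -0.04. Among 46 epidermal genes 2 rose and 0 fell. That is 4.35% called, against 4.02% of all genes, with 0.9% of all genes called higher. The transcription factor klf5.S had 5.09 and 5.56 in injected sides, against 3.58 and 3.67 in uninjected sides, a difference of 1.70 (standard error 0.33), and its other probe set differed by 0.42. The epidermal regulator grhl1.L rose by 1.02, but its other, brighter probe set differed by only 0.23. Its relative grhl3.L differed by 0.79 and was not called. Of these, klf5.S alone was called with the pairs as a block, where the epidermal list had 1 higher and 4 lower genes. In 37 neural crest and placode genes the receptor gene kit.S rose by 0.95, and sox8.L and twist1.L, transcription factors of the crest, fell by 0.90 and 0.75, none of them called with the block. In the 17 genes of the cement and hatching glands the median was -0.45, and otx2.S was the called gene. In the crest and gland lists 8.11% and 5.88% of the genes were called, against 4.02% of all genes.

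No member was called in the lists of immediate early and wound response genes (42 genes), innate immune and interferon genes (17), Notch pathway (27), midbrain and hindbrain (15) and left-right determinants (9). Of 45 heat shock and unfolded protein genes, herpud1.S, which acts in degradation at the endoplasmic reticulum, rose by 0.75 (2.22% called, against 4.02% of all genes). Among 138 cell cycle and replication genes 2 rose and 3 fell (3.62% called), and the median was 0.10. The probe sets assigned to both copies of the ubiquitin-conjugating enzyme of mitotic exit, UBE2S, rose. The gene ube2s.L had 9.61 and 9.75 in injected sides, against 8.43 and 8.46 in uninjected sides, and rose by 1.23 (standard error 0.15, local fdr 5.56e-15), and ube2s.S rose by 0.74. These probe sets carry the same cluster number, so they may not be separate readings. Another probe set of ube2s.S differed by 0.27. The replication factor gene cdc45.L fell by 0.48. The genes incenp.L and birc5.L, which encode subunits of the chromosomal passenger complex, fell by 0.47 and 0.42. Their homeologs incenp.S and birc5.S differed by 0.34 and -0.08 and were not called. With the pairs as a block herpud1.S and both copies of UBE2S were called, and the 3 genes that fell were not.

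In the list of H4K20 and heterochromatin methylation, 2 of 23 genes fell and 0 rose (8.7% called, against 4.02% of all genes). The maintenance DNA methyltransferase gene dnmt1.S had 7.37 and 7.34 in injected sides, against 8.31 and 8.46 in uninjected sides, and fell by 1.03 (standard error 0.23), and its partner uhrf1.S fell by 0.50. In the glucose and lipid storage list 4 of 51 genes fell and 0 rose (7.84% called). These were pfkm.S, a phosphofructokinase gene, by 0.46, the glucose transporter gene slc2a1.L by 0.82, and the fatty acid activating acsl1.S and acsl1.L by 0.51 and 0.37. Of 29 genes often used as references 2 fell (6.9% called), ppia.L by 0.69 and slc35b1.L by 0.77. Another, brighter probe set of slc35b1.L differed by -0.07, and the median of that list was -0.07. Of the genes of these 3 lists, dnmt1.S, ppia.L and slc35b1.L were also called with the pairs as a block.

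**Figure D4:**
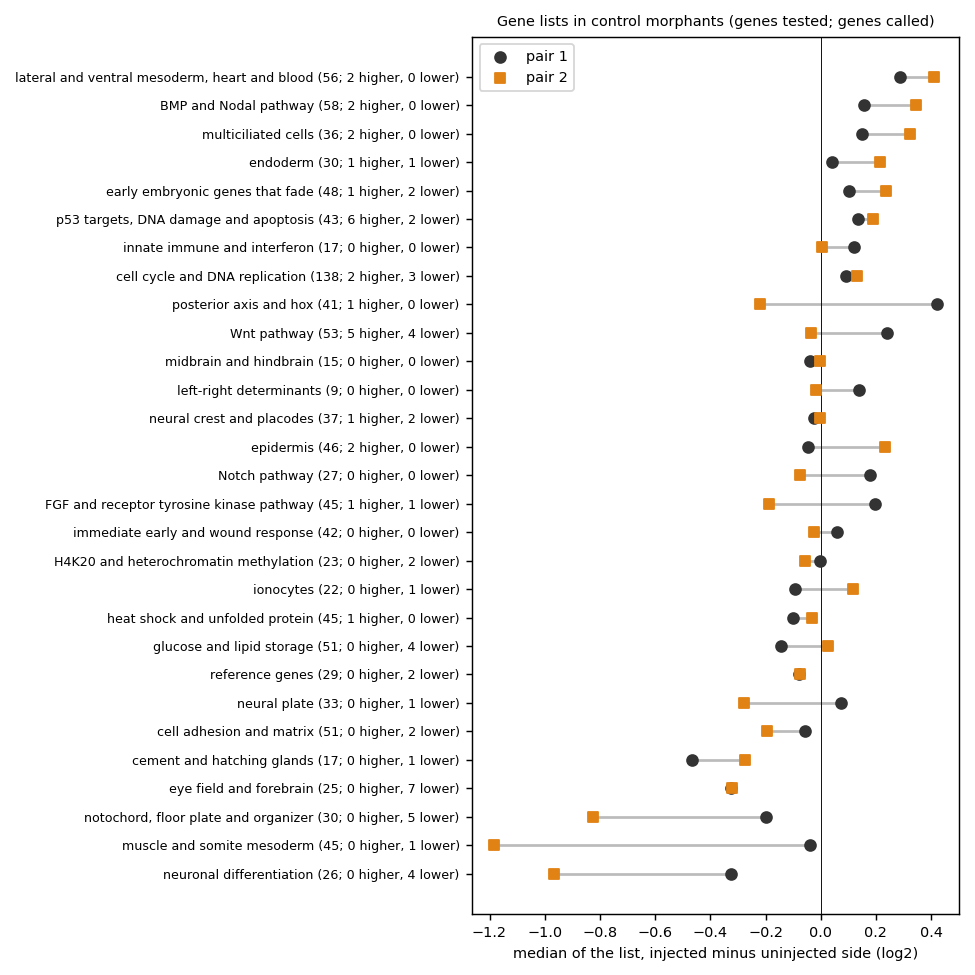
Median difference between injected and uninjected sides (log2) of each of 29 gene lists in pair 1 (circles) and pair 2 (squares), with the number of genes tested and called beside each name. In pair 2 the muscle, neuronal and organizer lists lie lowest, far below their pair 1 values, in pair 1 the cement and hatching glands lie lowest at -0.47, and both symbols of the eye field and forebrain list nearly coincide at -0.33 and -0.32.

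Outside the lists described above, the called genes with the largest differences were of mixed function. Among those that rose, haus4.L, a subunit of the augmin complex of the spindle, had 4.66 and 5.37 in injected sides, against 2.90 and 3.12 in uninjected sides, a difference of 2.00 (standard error 0.26, local fdr 7.29e-13). The gene lysmd2.L rose by 1.42, the ubiquitin ligase gene marchf8.L by 1.29, dipk1a.L by 1.33, the chromatin protein gene hmgb2.S by 1.33 and aida.S by 1.08. Other probe sets of hmgb2.S differed by 0.03 and 0.51, and its homeolog hmgb2.L by -0.03. The mitochondrial import gene timm23.L rose by 1.34 at its most variable probe set and differed by 0.11 and -0.06 at the others. With the pairs as a block dipk1a.L, hmgb2.S and timm23.L lost their calls, and the other 4 kept them.

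Among those that fell, the vesicular monoamine transporter gene slc18a1.S had 5.58 and 3.68 in injected sides, against 7.43 and 6.77 in uninjected sides, and fell by 2.48 (standard error 0.63). The urea cycle gene asl.L had 5.34 and 6.03 in injected sides, against 7.26 and 7.69 in uninjected sides, and fell by 1.79, and its other probe set differed by -1.68. The mitochondrial gene aifm3.L had 6.28 and 6.66 in injected sides, against 7.95 and 8.01 in uninjected sides, and fell by 1.51, with -1.55 at its other probe set. The sides of these 3 genes did not overlap, as in every called gene, and all 3 were called with the block.

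Other genes that fell included several for secreted proteins. The plasma protein genes kng1.L and hrg.L fell by 2.25 and 2.04, the secreted protease inhibitor wfdc2.L fell by 1.98, and xa-1.L fell by 2.31. For kng1.L and hrg.L pair 2 had the wider gap, and neither was called without the injected side of replicate 2. The transcription factor gene mycn fell in both copies, mycn.S by 1.48 and mycn.L by 1.42. The sulfotransferase gene chst13.L fell by 1.58, the lipid phosphatase gene lpin2.S fell by 1.54, the claudin gene cldn6.2.S by 0.98 and the growth factor gene igf3.L by 0.94. The neuronal nitric oxide synthase gene nos1.L had 2.72 and 2.92 in injected sides, close to the lowest values, against 4.34 and 4.20 in uninjected sides. The endodermal and endothelial regulator sox7.L rose by 0.86. Of the genes in this paragraph, xa-1.L and igf3.L lost their calls with the pairs as a block.

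Second readings of the same RNA mostly pointed the same way. Other probe sets of genes called higher were also higher in 31 of 33 cases (93.9%), and those of genes called lower were also lower in 73 of 91 cases (80.2%), against 72.7% same-signed probe sets over all genes. Their median differences were smaller, 0.31 upwards and -0.36 downwards, against 0.83 and -0.83 at the probe sets that were called. Homeologs had the same sign in 25 of 29 cases for higher genes (86.2%) and in 51 of 69 cases for lower genes (73.9%), against 65.3% over all genes. The median differences of these homeologs were 0.39 and -0.21, against 0.75 and -0.78 at the called genes. Because the most variable probe set was used for each gene, the called readings were also those most likely to show a difference.

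Double morphants tell which of these differences also appeared after injection of other morpholinos. Their arrays share no sample with those of control morphants but come from the same 2 experiments. They also entered the estimate of spread behind the calls and the choice of probe set. Genes whose replicates agreed in double morphants were thus easier to call, so the shares below are a description. Of the 74 genes called higher in control morphants, 62 (83.8%) were also higher in both pairs of double morphants, against 43% of all genes. Of the 256 genes called lower, 187 (73%) were also lower in both pairs of double morphants, against 37.4% of all genes. The median differences of the higher genes were 0.79 in control and 0.63 in double morphants, and those of the lower genes were -0.76 in control and -0.42 in double morphants. Among these genes 9 were called higher and 22 lower in double morphants too, where 0.633% and 0.998% of all genes were called.

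For some genes the effect differed between the kinds of morphant in limma's test of the difference, at a local fdr under 0.2, given here as the effect in double minus that in control morphants. This held for 8 of the 74 higher genes and 25 of the 256 lower genes, against 99 genes with a positive and 162 with a negative difference among all 8219 (1.2% and 1.97%). Since these genes had been called on the control arrays, which enter the test, the differences are a description. The transcription factor gene creb1.S, which mediates responses to cyclic AMP, had 9.13 and 9.19 in injected sides of control morphants, against 10.52 and 11.17 in their uninjected sides. In double morphants it had 11.04 and 11.70 in injected and 10.68 and 11.23 in uninjected sides, and the effects differed by 2.10 (standard error 0.48). The injected sides of control morphants were thus the lowest of the 8 arrays for this gene. The spindle gene haus4.L was at 2.78 to 3.20 on the 4 arrays of double morphants, and the injected sides of control morphants were the only arrays above these values by more than 1. A gene needed a mean of at least 4 in at least 1 group to be tested. Since haus4.L passed only through these injected sides, this contrast was partly fixed by the filter.

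The feedback regulator of tetrahydrobiopterin synthesis gchfr.L had 5.03 and 5.08 in injected sides of control morphants, against 4.03 and 3.87 in their uninjected sides, and differed by -0.12 in double morphants. It too passed the filter only through the injected sides of control morphants. The membrane protein gene palm3.L had 6.89 and 7.12 in injected sides of control morphants, against 8.66 and 8.41 in their uninjected sides, and differed by -0.24 in double morphants. Its other probe set differed by only -0.16 in control morphants. The carnitine and cation transporter gene slc22a4.L fell by 1.64 in control morphants, with -1.22 at its other probe set, and differed by 0.24 in double morphants. These 3 genes were thus called in control and not in double morphants, with a called difference between the effects. The gene cdca8.L, a subunit of the chromosomal passenger complex, fell by 1.16 in control morphants and differed by 0.78 in double morphants, but its other probe sets differed by -0.01 and 0.25 in control morphants. For incenp.L of the same complex, the effects were -0.47 in control and 0.76 in double morphants. Its homeolog incenp.S differed by 0.34 upwards in control morphants and was not called. The cytoskeletal gene eps8l3.S fell by 1.37 in control morphants and differed by -0.16 in double morphants, and XB5894820.L, a symbol with no gene name, fell by 1.79 and differed by 0.25. The reverse case was the cement gland gene agr2.S. It had 10.93 and 10.65 in injected sides of control morphants, against 11.65 and 11.07 in their uninjected sides, which was not called, while its effect in double morphants was -3.50.

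**Figure D5:**
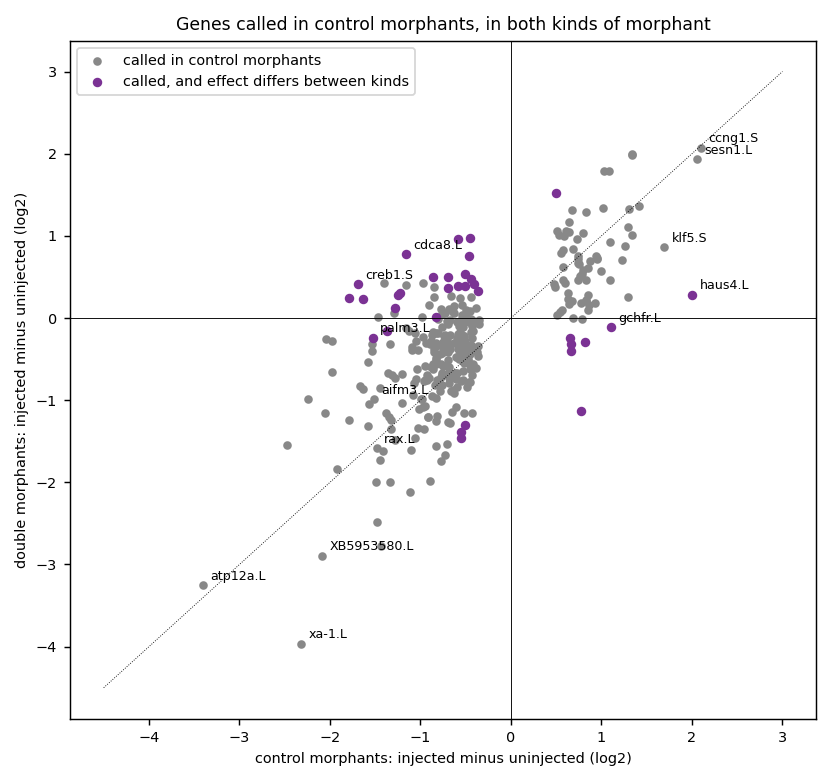
Difference between injected and uninjected sides (log2) in control morphants (x axis) and in double morphants (y axis) for the 330 genes called in control morphants, with genes whose effect differed between the kinds in purple and the dotted line marking equal effects. The genes ccng1.S, sesn1.L and atp12a.L lie near the line, whereas creb1.S, palm3.L, gchfr.L and haus4.L lie near 0 on the y axis.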

How the data were processed

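RNA of 4 groups of 2 pools was measured on Affymetrix *Xenopus laevis* arrays. The deposited values are GCRMA expression values on the log2 scale, normalized across arrays by the authors, for 32635 probe sets, and its version is not given in the sources used here. Of these, 15505 carried 1 gene, 279 several and 16851 none in the supplied probe table, and only the first were tested by gene. In place of the authors' filter on present calls, which needs the scans, a gene needed a mean of at least 4 in at least 1 group. Probe sets of variance 0 were dropped and the most variable probe set was kept per gene, which left 8219 genes. limma 3.58.1 in R 4.3.3 was fitted with 4 group means over all 8 arrays, so that all groups share the estimate of spread. The study's threshold for a call, a local fdr under 0.2, was kept, with the locfdr method (empirical null, 120 bins, 7 degrees of freedom) written anew and tested on simulated data. Adjusted p-values are Benjamini-Hochberg values of limma. P-values measure the spread between these arrays.

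The supplementary text states that paired sides came from the same embryos. Deviations of paired control arrays from their group means correlated by 0.77 across genes, so the block of pairs is given beside results that it changes. Between the kinds of morphant, injected sides of the same experiment correlated by 0.80 and uninjected sides by 0.69. The correlation of pairs therefore does not separate shared embryos from a shared experiment. Alternatives were the null, thresholds, blocks, normalization, filters, choice of probe set and leaving out each array. Genes named were called genes with the 15 highest and 15 lowest differences, called or extreme list members, and genes past 1 in both pairs. The members, gene lists and tests were chosen with earlier results of these data known, and 12 genes outside the rule were chosen after their values were seen.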

Additional observations from a re-analysis of the deposited data

Results flagged for a closer look

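A total of 10 named genes had an injection effect that differed between the kinds of morphant by limma's test of the difference (local fdr under 0.2, lowest adjusted p 0.574 over all genes). Each value is the effect in double minus the effect in control morphants on the log2 scale. All but agr2.S had been called on the control arrays, which enter this test, so the differences are a description. The difference was positive for creb1.S (2.10), XB5894820.L (2.04), cdca8.L (1.94), slc22a4.L (1.88), palm3.L (1.29), incenp.L (1.22) and eps8l3.S (1.21), all of which were lower in injected sides of control morphants. It was negative for haus4.L (-1.72) and gchfr.L (-1.22), which were higher in injected sides of control morphants, and for agr2.S (-2.92), which was not called there. The genes haus4.L and gchfr.L passed the filter on low values only through those injected sides. Other probe sets of cdca8.L and palm3.L differed by at most 0.25 in size between the sides of control morphants. The homeolog incenp.S differed by 0.34 upwards there, opposite to incenp.L.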

How the results depend on the processing

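The counts of called genes depended on the rule and on single arrays. A theoretical null gave 49 higher and 86 lower genes in control morphants, z values 0 and 77, and an adjusted p under 0.05 or under 0.2 gave 0 and 0. Without the filter on low values there were 430 and 457, and over all probe sets 183 and 654. A replicate block by number gave 18 higher and 187 lower genes, and a replicate block by pair of sides 54 and 239. With pairs as a block, an adjusted p under 0.05 gave 0 and 0 and one under 0.2 gave 303 and 354 (settings chosen after seeing the data). Leaving out each control array gave 8 to 75 higher and 57 to 152 lower genes, the lowest counts without the uninjected side of replicate 2. The remaining settings kept both counts within 1.5 times, but similar counts need not be the same genes. Control arrays alone with the pairs as a block gave 54 and 261 genes, of which 26 and 131 were among those called. For the difference between double and control morphants, 99 positive and 162 negative calls became 61 and 67 with the pairs as a block and 0 and 0 at an adjusted p under 0.05. Leaving out each of the 8 arrays gave 18 to 151 and 12 to 205, the fewest negative calls without the injected side of control replicate 2.

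Of the 87 called genes named, 45 were called with the pairs as a block, 45 without the injected side of replicate 2 and 21 without the uninjected side of replicate 2. Signs turned at the brightest probe set for fzd8.S (0.14) and timm23.L (-0.061), and 18 further called genes lost their call there, among them klf5.S, hmgb2.S and slc35b1.L. Leaving out injected replicate 1 or 2 moved 4 uncalled muscle genes between -6.003 and 0.049 (tpm1.L), -5.549 and 0.186 (myh4.L), -2.550 and 0.094 (actc1.L) and -1.734 and 0.425 (myod1.L). In fits without an array, a lone array was assumed to vary like the other groups. Causes were not tested beyond what each setting itself changes.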
